A study of Homo sapiens with 2 samples.

Results

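The genes of DNA replication licensing and S phase are the machinery that prepares chromosomes for copying and then copies them. They were taken as 40 genes named by symbol: the origin recognition complex, the licensing factors, the MCM helicase and its activators, polymerases, the sliding clamp and its loader, nucleotide synthesis enzymes and S-phase regulators. All 40 were found by symbol among the 28303 genes with deposited values, and all 40 passed the filter on low values described below, as did 11945 genes in all. The cells were HGC27, an established human gastric cancer line, transfected with a pcDNA3.1 plasmid carrying linc01133 (LINC01133, a long non-coding RNA) or with the pcDNA3.1-control plasmid, and harvested 48 h later. Both groups were cultured and transfected alike, and no genetic change beyond the plasmid is labelled. Each group held 1 library of poly(A)-selected RNA, so no difference below has a replicate check, and no p-value is given. The transfection was of a plasmid into a whole culture, and the share of cells that took it up is not stated in the sources used here.

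Before a chromosome can be copied, ORC binds its origins, and CDC6 and CDT1 then load the ring-shaped MCM2-7 helicase there in an inactive form, the step called licensing. Geminin holds CDT1 inactive once S phase has begun, so that origins are licensed once per cycle. In S phase the loaded rings are activated with CDC45 and the GINS complex, primase and polymerases synthesise the new strands, the PCNA clamp keeps polymerase on DNA, and ribonucleotide reductase and thymidylate synthase supply nucleotides. Many of these genes are known targets of E2F transcription factors, and proliferating cancer lines transcribe them strongly.

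Depth was 16302581 counted fragments in the overexpression library and 15666629 in the control library. LINC01133 itself had an FPKM of 1.44 in the overexpression library, against 0.0809 in the control library, from 74 fragments in the overexpression library and 4 in the control library. Values are FPKM, fragments divided by exon length and by library depth; a log2 ratio is log2 of (overexpression FPKM + 1) over (control FPKM + 1), and understates the difference of low genes. A gene passed the filter at a mean FPKM of 1 or more. The median log2 ratio of all genes past the filter was 0.10. The defining epithelial markers of the labelled cell type did not pass the filter: KRT18 was listed at 0 in both libraries, and the 7 epithelial markers with values summed to 1.78 FPKM in the overexpression library and 2.06 FPKM in the control library. Among 6 gastric lineage markers with values, 2 passed the filter, GATA4 and GATA6, MUC5AC and TFF2 were at 0 in both, and the list summed to 10.1 FPKM in the overexpression library and 12.3 FPKM in the control library. All 8 fibroblast markers passed it, with sums of 875 FPKM in the overexpression library and 817 FPKM in the control library. Single markers differed more: POSTN had 98.8 FPKM in the overexpression library and 33.7 FPKM in the control library, LUM had 56.6 FPKM in the overexpression library and 30.5 FPKM in the control library, and COL1A1 had 162 FPKM in the overexpression library and 209 FPKM in the control library. Of the blood and endothelial markers, CDH5 was at 0 in both libraries, PTPRC had 0.0659 FPKM in the overexpression library and 0.0305 FPKM in the control library, and VWF had 0.0236 FPKM in the overexpression library and 0.0553 FPKM in the control library. CD14 had 0.293 FPKM in the overexpression library and 0.745 FPKM in the control library. The part of these markers in the results was not tested. In a culture measured in bulk, fewer cells in S phase and less RNA per cell cannot be told apart.

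The promoters of 4 members are shown first, since the choice of members did not use them and most of the known regulation by E2F is read there. They come from ORC3 (ORC had the highest median log2 ratio of the role groups) and from MCM2, MCM3 and MCM6 (MCM2-7 had the lowest). Each window is 60 bases, 5′ to 3′ on the strand of the gene, from RefSeq on GRCh38.p14, and capitals mark E2F-type letters, as searched below. ORC3 lies at chr6:87590097-87590156 on the plus strand, MCM2 at chr3:127598389-127598448 on the plus strand, MCM3 at chr6:52284883-52284942 on the minus strand and MCM6 at chr2:135876560-135876619 on the minus strand.
ORC3: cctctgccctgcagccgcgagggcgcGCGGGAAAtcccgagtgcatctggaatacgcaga
MCM2: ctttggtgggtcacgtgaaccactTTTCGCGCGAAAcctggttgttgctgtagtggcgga
MCM3: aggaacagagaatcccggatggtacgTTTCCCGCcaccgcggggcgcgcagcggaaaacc
MCM6: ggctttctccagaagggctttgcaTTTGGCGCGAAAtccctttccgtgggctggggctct
The 4 genes were picked because they hold such letters, and ORC3 is the only ORC subunit that does in the promoters searched. The FPKM ratios of the 4, overexpression over control, ran from 0.661 for MCM2 to 2.27 for ORC3.

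The next windows show the same coding feature, the ATP-binding Walker A loop of the MCM helicase, in 5 of its 6 subunits. Each is 45 bases of coding sequence from GENCODE 29 on GRCh38, and capitals mark G or C at the last position of a codon, where composition is free to vary most. MCM2 and MCM5 lie at chr3:127616903-127616947 (plus strand, exon 10) and chr22:35413915-35413959 (plus strand, exon 9). MCM7 lies at chr7:100097326-100097370 (minus strand, exon 9). MCM3 (chr6:52277164-52277544) and MCM6 (chr2:135859442-135862650), both on the minus strand, span an intron, which is left out of the letters.
MCM2: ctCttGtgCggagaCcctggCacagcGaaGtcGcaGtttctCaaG
MCM5: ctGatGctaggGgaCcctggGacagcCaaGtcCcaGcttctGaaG
MCM7: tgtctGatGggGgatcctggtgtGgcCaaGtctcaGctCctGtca
MCM3: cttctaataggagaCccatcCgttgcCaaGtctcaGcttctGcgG
MCM6: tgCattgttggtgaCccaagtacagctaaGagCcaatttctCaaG
G or C stood at 11 of the 15 last codon positions of this stretch in MCM2, 11 in MCM5, 9 in MCM7, 7 in MCM3 and 6 in MCM6, and at 12 in MCM4, whose letters are not shown. Over the whole coding sequence of the transcript used, the GC content of the last codon positions was 77.2% in MCM2, 79.7% in MCM5, 64.7% in MCM7, 61.6% in MCM3, 53.1% in MCM4 and 46.0% in MCM6. In the MCM7 transcript used the loop starts at codon 205, against codons 381 to 523 in the other subunits. The exon number and GC content of MCM7 are those of that transcript, and other MCM7 transcripts may differ. The short stretch therefore does not rank the subunits as the whole coding sequence does.

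The summed level of the members was nearly the same in both libraries under the deposited scaling. Their summed FPKM was 1338 in the overexpression library and 1323 in the control library, a ratio of 1.01. Over all genes with deposited values that ratio was 0.944. Such a sum leans on the most abundant members, such as MCM7 and PCNA. The log2 ratios of the members ran from -0.68 for CDT1 to 1.07 for RFC1, with a median of 0.27 and quartiles at -0.17 and 0.67. The log2 ratio was above 0 for 26 of 40 members (65%), where 55.4% of all filtered genes were above 0. At a 2-fold threshold, 3 members were higher in the overexpression library, ORC3, RFC1 and RFC3, which is 7.5% of members beside 11.9% of all genes, and none was lower, beside 0.444% of all genes. At 1.5-fold, 11 members were higher (27.5%, beside 26.8% of all genes) and CDT1 and MCM2 were lower (5%, beside 5.29%). The shares at 2-fold and at 1.5-fold lie near the background of all genes or under it, and the share above 0 lies over it.

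Counting error was small against many of these differences. Whole fragments were recovered in both libraries for 35 of the 40 members, and each has a 95% exact (Clopper-Pearson) interval for its FPKM ratio, covering counting error only. The interval lay above 1 for 20 of the 35 members (57.1%, beside 42.6% of 10869 genes) and below 1 for 12 (34.3%, beside 32.4%). ORC1, MCM3 and GINS3 were the members whose interval held 1. All intervals take the deposited scaling as it stands, and another scaling would move them. After scaling by a trimmed mean of M values (below), the log2 ratios of ORC1 and MCM3 were both -0.21. CDC6, MCM4, POLD1, RFC1 and RRM2 carry no interval, since their values were not whole fragments.

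**Figure D1:**
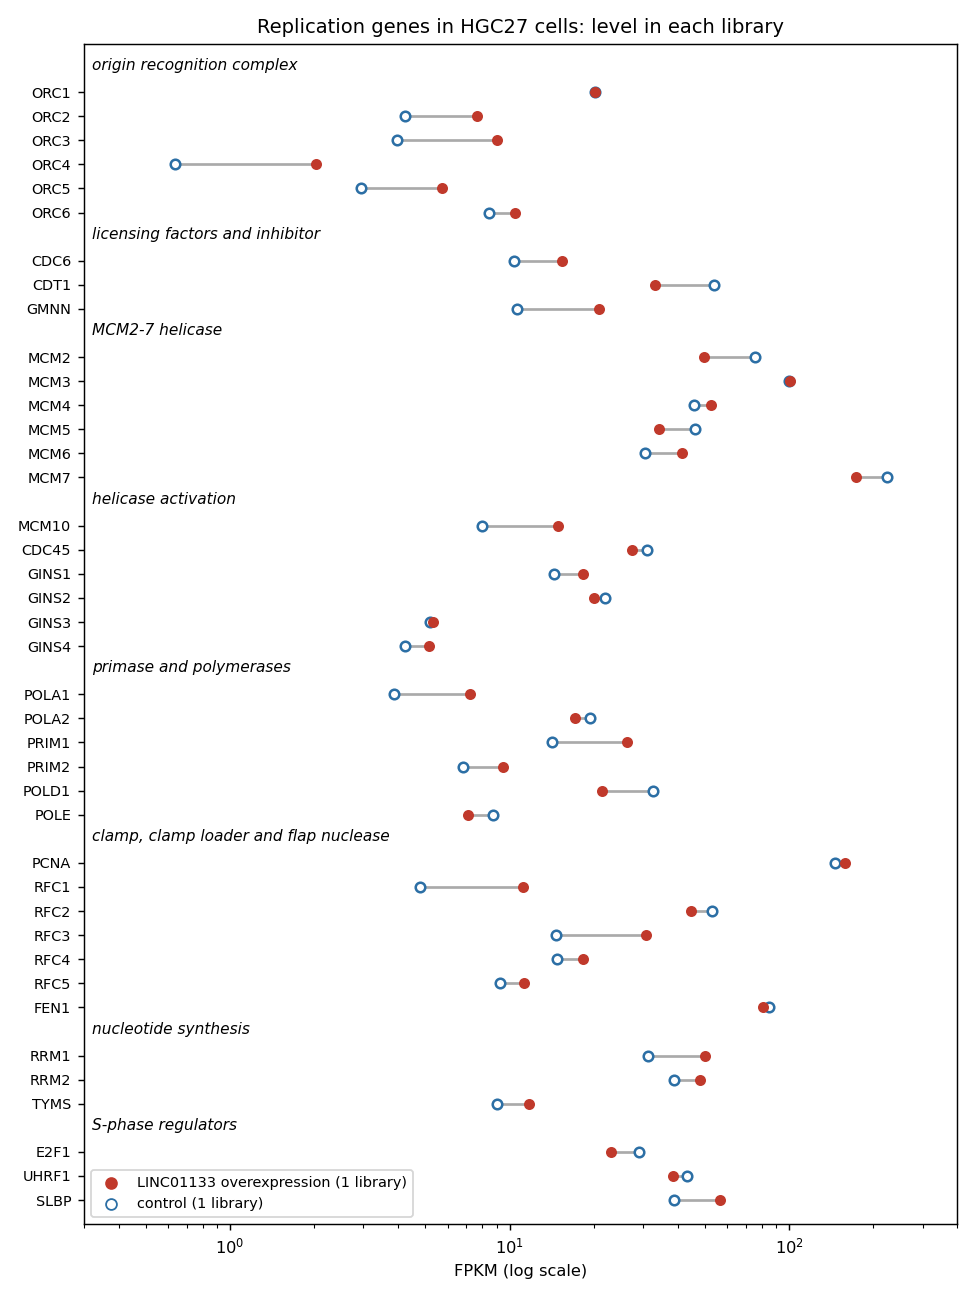
FPKM of the 40 members in the overexpression library and the control library, on a log axis, grouped by role, 1 point per library. ORC4 was the lowest member in both libraries (2.04 FPKM in the overexpression library, 0.637 FPKM in the control library) and MCM7 the highest (173 FPKM in the overexpression library, 224 FPKM in the control library).

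The origin recognition complex marks replication origins and is the base on which licensing is built. Its 6 subunits summed to 55.1 FPKM in the overexpression library and 40.5 FPKM in the control library, and the group had a median log2 ratio of 0.75, the highest of the 8 role groups. ORC1, the ATPase that is made and degraded with the cell cycle, had 20.1 FPKM in the overexpression library, against 20.3 FPKM in the control library, with a ratio of 0.994 (0.910 to 1.08). The ORC1 interval thus held 1 under the deposited scaling, while the intervals of the other 5 subunits lay above 1. ORC2, which sits in the core of the complex, had 7.66 FPKM in the overexpression library and 4.23 FPKM in the control library, a ratio of 1.81 (1.60 to 2.05). ORC3 (chr6:87590067-87667453, plus strand), a scaffold subunit beside ORC2, had 9.01 FPKM in the overexpression library and 3.96 FPKM in the control library, a ratio of 2.27 (1.95 to 2.67). ORC4, an ATPase-fold subunit of the complex, had 2.04 FPKM in the overexpression library and 0.637 FPKM in the control library, a ratio of 3.20 (2.51 to 4.10). The ORC4 ratio was the largest among the members, but as its control level is under 1 FPKM its log2 ratio with the pseudocount was only 0.89. ORC5 had 5.75 FPKM in the overexpression library and 2.93 FPKM in the control library, a ratio of 1.96 (1.63 to 2.37). ORC6, the small subunit that is only loosely held, had 10.5 FPKM in the overexpression library and 8.44 FPKM in the control library, a ratio of 1.24 (1.11 to 1.38). ORC1 therefore stood 9.89 times above the lowest subunit, ORC4, in the overexpression library and 31.8 times above it in the control library. ORC3 and ORC2 exchanged places in the order of levels, and the rest kept theirs.

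Of the factors that load the helicase or hold it back, the loader CDT1 was lower and its inhibitor geminin was higher in the overexpression library. CDT1 (chr16:88803213-88809258, plus strand) had 33.2 FPKM in the overexpression library, against 53.7 FPKM in the control library, from 1805 fragments in the overexpression library and 2806 in the control library, a ratio of 0.618 (0.582 to 0.656). GMNN, the gene of geminin (chr6:24774931-24786099, plus strand), had 20.8 FPKM in the overexpression library, against 10.6 FPKM in the control library, from 841 fragments in the overexpression library and 411 in the control library, a ratio of 1.97 (1.75 to 2.22). Set against each other, GMNN had 0.628 of the FPKM of CDT1 in the overexpression library and 0.197 in the control library, so the quotient was 3.18 times as large (2.78 to 3.64). A scaling of the libraries cancels from that quotient, but composition does not: the CDT1 transcript has 64.9% GC and the GMNN transcript 43.6%. The same holds for the quotients of other pairs below. CDC6, the ATPase that recruits CDT1 and the helicase to ORC, had 15.4 FPKM in the overexpression library and 10.3 FPKM in the control library, a ratio of 1.49.

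The helicase subunits were the most abundant group, and their ratios lay on both sides of 1. MCM2-7 summed to 451 FPKM in the overexpression library and 522 FPKM in the control library. MCM7 had 173 FPKM in the overexpression library and 224 FPKM in the control library, a ratio of 0.774 (0.756 to 0.792). MCM2 had 49.7 FPKM in the overexpression library and 75.2 FPKM in the control library, a ratio of 0.661 (0.634 to 0.688). MCM5 had 34.1 FPKM in the overexpression library and 46.1 FPKM in the control library, a ratio of 0.740 (0.710 to 0.771). All 3 were lower in the overexpression library by more than counting error. MCM3 had 100.3 FPKM in the overexpression library and 100.2 FPKM in the control library, a ratio of 1.002 (0.966 to 1.04). Its interval thus held 1 under the deposited scaling. MCM4 had 52.4 FPKM in the overexpression library and 45.7 FPKM in the control library, a ratio of 1.15. MCM6 had 41.4 FPKM in the overexpression library and 30.6 FPKM in the control library, a ratio of 1.35 (1.28 to 1.44). MCM6 and MCM2 are found in 1 ring in equal number. MCM6 had 0.833 of the FPKM of MCM2 in the overexpression library and 0.406 in the control library, a quotient 2.05 times as large (1.91 to 2.2). The MCM6 transcript has 43.1% GC and the MCM2 transcript 58.1%. With the trends on GC content and length subtracted (below), their log2 ratios were -0.04 and -0.18. The order of levels in the overexpression library was MCM7, MCM3, MCM4, MCM2, MCM6 and MCM5, and in the control library MCM7, MCM3, MCM2, MCM5, MCM4 and MCM6. The highest subunit stood 5.07 times above the lowest in the overexpression library and 7.33 times in the control library. The levels of the ring subunits were therefore closer to each other in the overexpression library, where MCM6, the lowest in the control library, was higher and MCM7 was lower. MCM2 shares 22.7% of its exon bases with the antisense gene AC023593.1, and without strand-specific counting their fragments cannot be told apart.

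Of the factors that turn the loaded rings into working helicases, MCM10 had the largest ratio, and the ratios of the others lay on both sides of 1. MCM10, which is needed for the helicase to begin unwinding, had 14.9 FPKM in the overexpression library and 7.96 FPKM in the control library, a ratio of 1.88 (1.71 to 2.06). CDC45, which binds MCM2-7 with GINS to form the active helicase, had 27.4 FPKM in the overexpression library and 30.9 FPKM in the control library, a ratio of 0.887 (0.821 to 0.958). MCM10 thus had 0.544 of the FPKM of CDC45 in the overexpression library and 0.258 in the control library, a quotient 2.11 times as large (1.87 to 2.39). The MCM10 transcript has 43.3% GC and the CDC45 transcript 51.4%. With the trends on GC content and length subtracted (below), their log2 ratios were 0.36 and 0.05. Of the 4 GINS subunits, GINS1 had 18.3 FPKM in the overexpression library and 14.45 FPKM in the control library, a ratio of 1.26 (1.16 to 1.38). GINS2 had 20.03 FPKM in the overexpression library and 21.98 FPKM in the control library, a ratio of 0.911 (0.837 to 0.992). The GINS1 ratio thus lay above 1 and the GINS2 ratio just below it, as deposited. GINS2 had the higher FPKM of the pair in both libraries. The GINS1 transcript has 41.4% GC and the GINS2 transcript 49.1%. With the trends on GC content and length subtracted (below), their log2 ratios were -0.29 and -0.08, so GINS1 was then the lower of the pair. GINS3 had 5.32 FPKM in the overexpression library and 5.21 FPKM in the control library, a ratio of 1.02 (0.891 to 1.17). GINS4 had 5.15 FPKM in the overexpression library and 4.23 FPKM in the control library, a ratio of 1.22 (1.06 to 1.4). The subunits of this complex are used in equal number, and GINS3 and GINS4 were the lowest in both libraries. GINS3 and GINS4 share 10.9% and 23.6% of their exon bases with antisense genes.

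Within the primase and polymerase group the subunits of 1 enzyme also differed in direction. POLA1, the catalytic subunit of the priming polymerase alpha, had 7.21 FPKM in the overexpression library and 3.85 FPKM in the control library, a ratio of 1.87 (1.65 to 2.13). PRIM1, the catalytic subunit of primase, had 26.4 FPKM in the overexpression library and 14.2 FPKM in the control library, a ratio of 1.86 (1.68 to 2.07). PRIM2, its partner subunit, had 9.5 FPKM in the overexpression library and 6.80 FPKM in the control library, a ratio of 1.4 (1.25 to 1.57). The catalytic subunits POLA1 and PRIM1 thus had like ratios, both above that of PRIM2. POLA2, which holds polymerase alpha together, had 17.1 FPKM in the overexpression library and 19.4 FPKM in the control library, a ratio of 0.880 (0.822 to 0.943). PRIM1 was therefore 1.55 times the level of POLA2 in the overexpression library and 0.732 of it in the control library, and the quotient was 2.11 times as large (1.86 to 2.4). The PRIM1 transcript has 40.1% GC and the POLA2 transcript 54.5%. With the trends on GC content and length subtracted (below), their log2 ratios were 0.20 and 0.12. POLD1, the catalytic subunit of the lagging-strand polymerase delta, had 21.45 FPKM in the overexpression library and 32.5 FPKM in the control library, a ratio of 0.659. POLE, the catalytic subunit of the leading-strand polymerase epsilon, had 7.11 FPKM in the overexpression library and 8.72 FPKM in the control library, a ratio of 0.816 (0.767 to 0.867). POLA2 shares 35.1% of its exon bases and PRIM1 21.6% with overlapping genes, so both levels are uncertain.

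The clamp PCNA was among the highest members and differed little. PCNA had 159 FPKM in the overexpression library and 145.5 FPKM in the control library, a ratio of 1.09 (1.04 to 1.14). RFC1 (chr4:39287456-39366375, minus strand), the large subunit of the loader that places PCNA on DNA, had 11.1 FPKM in the overexpression library and 4.78 FPKM in the control library, a ratio of 2.33. RFC3 (chr13:33818049-33966558, plus strand), a small subunit of that loader, had 30.8 FPKM in the overexpression library and 14.7 FPKM in the control library, a ratio of 2.1 (1.91 to 2.30). These subunits were both more than 2-fold higher in the overexpression library, which was not so of the others. RFC2, another small subunit, had 44.4 FPKM in the overexpression library and 52.9 FPKM in the control library, a ratio of 0.839 (0.784 to 0.898). RFC3 was thus 0.693 of the level of RFC2 in the overexpression library and 0.277 in the control library, a quotient 2.50 times as large (2.23 to 2.81). The RFC3 transcript has 39.1% GC and the RFC2 transcript 53.6%. With the trends on GC content and length subtracted (below), their log2 ratios were 0.22 and 0.09. RFC4 had 18.4 FPKM in the overexpression library and 14.8 FPKM in the control library, a ratio of 1.24 (1.13 to 1.38). RFC5 had 11.3 FPKM in the overexpression library and 9.21 FPKM in the control library, a ratio of 1.22 (1.08 to 1.38). RFC5 shares 10.65% of its exon bases with genes on the opposite strand, WSB2 among them. FEN1, the nuclease that trims Okazaki fragments, had 80.4 FPKM in the overexpression library and 84.5 FPKM in the control library, a ratio of 0.951 (0.905 to 0.998).

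The enzymes that supply deoxynucleotides were the group with the largest ratio of sums. They summed to 109 FPKM in the overexpression library and 79.1 FPKM in the control library, a ratio of 1.38. RRM1, the large subunit of ribonucleotide reductase, had 49.8 FPKM in the overexpression library and 31.2 FPKM in the control library, a ratio of 1.59 (1.51 to 1.69). RRM2, the small subunit whose level follows S phase, had 47.85 FPKM in the overexpression library and 38.8 FPKM in the control library, a ratio of 1.23. The order of these subunits differed between the libraries, since RRM1 lay above RRM2 in the overexpression library and below it in the control library. TYMS, which makes thymidylate, had 11.8 FPKM in the overexpression library and 9.04 FPKM in the control library, a ratio of 1.30 (1.13 to 1.5). RRM1 was 4.23 times the level of TYMS in the overexpression library and 3.45 times in the control library. The RRM1 transcript has 43.0% GC and the TYMS transcript 49.8%. With the trends on GC content and length subtracted (below), their log2 ratios were 0.20 and 0.49, so TYMS was then the higher of the pair. TYMS shares 46.6% of its exon bases with genes on the opposite strand, 39.1% with ENOSF1, and RRM2 20.2% with a gene on its own strand.

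Of the regulators of S phase, SLBP was the member that stood apart. SLBP (chr4:1692800-1712555, minus strand) binds the stem-loop of histone mRNAs and is made as cells enter S phase. It had 56.6 FPKM in the overexpression library and 38.7 FPKM in the control library, from 1869 fragments in the overexpression library and 1228 in the control library, a ratio of 1.46 (1.36 to 1.57). E2F1, the transcription factor that drives many genes of this kind, had 23.1 FPKM in the overexpression library and 28.995 FPKM in the control library, a ratio of 0.798 (0.731 to 0.871). UHRF1, which recruits the maintenance methyltransferase to newly copied DNA, had 38.4 FPKM in the overexpression library and 43.2 FPKM in the control library, a ratio of 0.890 (0.848 to 0.933). SLBP was 2.45 times the level of E2F1 in the overexpression library and 1.33 times in the control library. The quotient was 1.83 times as large (1.64 to 2.05), and SLBP and UHRF1 exchanged places at the top of the 3. The SLBP transcript has 50.7% GC and the E2F1 transcript 62.5%. With the trends on GC content and length subtracted (below), their log2 ratios were 0.72 and 0.20.

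The members' log2 ratios ran against the GC content of their transcripts. Across the 40 members Spearman's rho was -0.913 and Pearson's r was -0.906, given as a description with no p, since all points share the 2 libraries. Across all 11913 genes with a known composition rho was -0.801. Across the 10335 protein-coding genes among them, the type to which all 40 members belong, it was -0.855. The 3 members under 40% GC, which are ORC3, ORC4 and RFC3, had a median log2 ratio of 1.01, against 1.06 over the 1749 genes in that range. The 13 members from 40 to 45% GC had a median of 0.73, against 0.62 over 2464 genes. All 13 lay above 0, as did 93.4% of those genes. The 9 members from 45 to 50% GC had a median of 0.23, against 0.19, and the 8 from 50 to 55% had -0.12, against -0.11. The 7 members at 55% or more, which are CDT1, MCM2, MCM5, MCM7, POLD1, POLE and E2F1, had a median of -0.42, against -0.35 over 3739 genes. None of the 7 lay above 0, where 11.7% of those genes did. Each bin of members therefore lay close to the bin of all genes. The correlation of the members' log2 ratios with transcript length was -0.03. Level ran with composition too: the 18 members with a mean FPKM from 20 to 100 had a median log2 ratio of -0.10 and a median GC content of 51.1%, and the 16 from 5 to 20 had 0.39 and 44.0%. Over all genes the median log2 ratio was -0.27 in the range from 20 to 100 and 0.01 in that from 5 to 20. The part of GC content in these differences, beyond the subtraction that follows, was not tested.

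**Figure D2:**
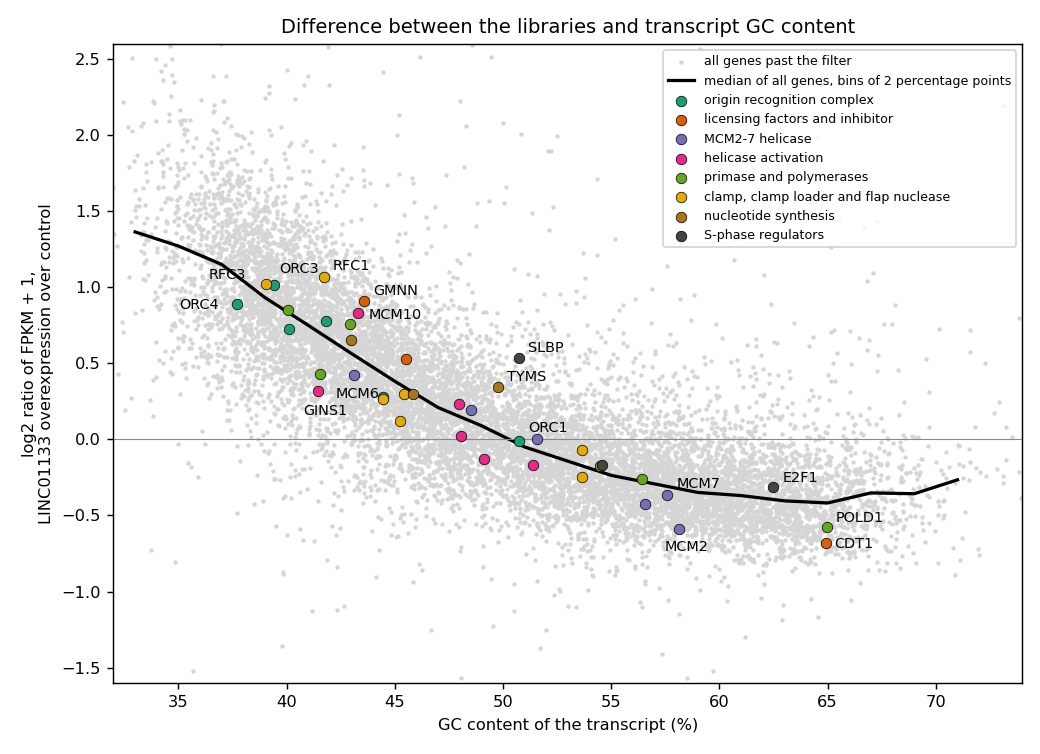
Log2 ratio of FPKM + 1, overexpression over control, against GC content of the transcript, for all genes past the filter (small points, those inside the plotted range of GC content and ratio) and the 40 members (large points, coloured by role). The members run down the same band as all genes, from ORC4 at 37.7% GC and 0.89 to POLD1 at 65.0% GC and -0.58.

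The trends of all genes on GC content and then on transcript length were subtracted next, which keeps the median of all genes at 0.10. The median of the members was 0.12 on this scale and their range -0.29 to 0.72. The SD across members was 0.211, against 0.492 as deposited; over all genes it was 0.389 with the trends subtracted, against 0.635 as deposited. On this scale 28 members were above 0 (70%, beside 64.3% of all genes), and no member reached 2-fold in either direction, beside 1.71% (higher) and 0.764% (lower) of all genes. At 1.5-fold, GMNN (0.60) and SLBP (0.72) were higher, beside 7.78% of all genes, and none was lower, beside 2.74%. After scaling by a trimmed mean of M values in place of subtraction, no member reached 2-fold either, beside 8.07% (higher) and 0.979% (lower) of all genes.

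Most of the differences between subunits described above were small on this scale. The median over ORC was 0.07, over MCM2-7 0.00, over the licensing factors 0.26, over the activators 0.04 and over the polymerases 0.08. Over the clamp and its loader it was 0.15, and over both the nucleotide enzymes and the S-phase regulators 0.20. The ORC subunits ran only from -0.12 (ORC4) to 0.27 (ORC5), and MCM2-7 from -0.18 (MCM2) to 0.18 (MCM3). GMNN and CDT1 stayed apart, at 0.60 and -0.18. CDT1 had 15.1% of all genes below it. GINS1 was the lowest member at -0.29. Above the upper quartile of all genes, 0.30, lay 5 members: SLBP, GMNN, TYMS (0.49), RFC1 (0.45) and MCM10 (0.36). SLBP stood above 95.4% of all genes and GMNN above 92.9%. Below the lower quartile of -0.08 lay 6 members, POLD1, ORC4, PRIM2, CDT1, MCM2 and GINS1, and 29 lay between. SLBP carries 5 coding transcripts whose GC content runs from 44.8 to 55.8%, and which of them were present was not tested. With composition taken as the median over coding transcripts, an alternative added after the data were seen, GMNN lay at 0.33. SLBP (0.60) and RFC3 (0.61) were then the members past 1.5-fold. The share of all genes past 1.5-fold under that alternative is not given here, so these calls have no background beside them.

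**Figure D3:**
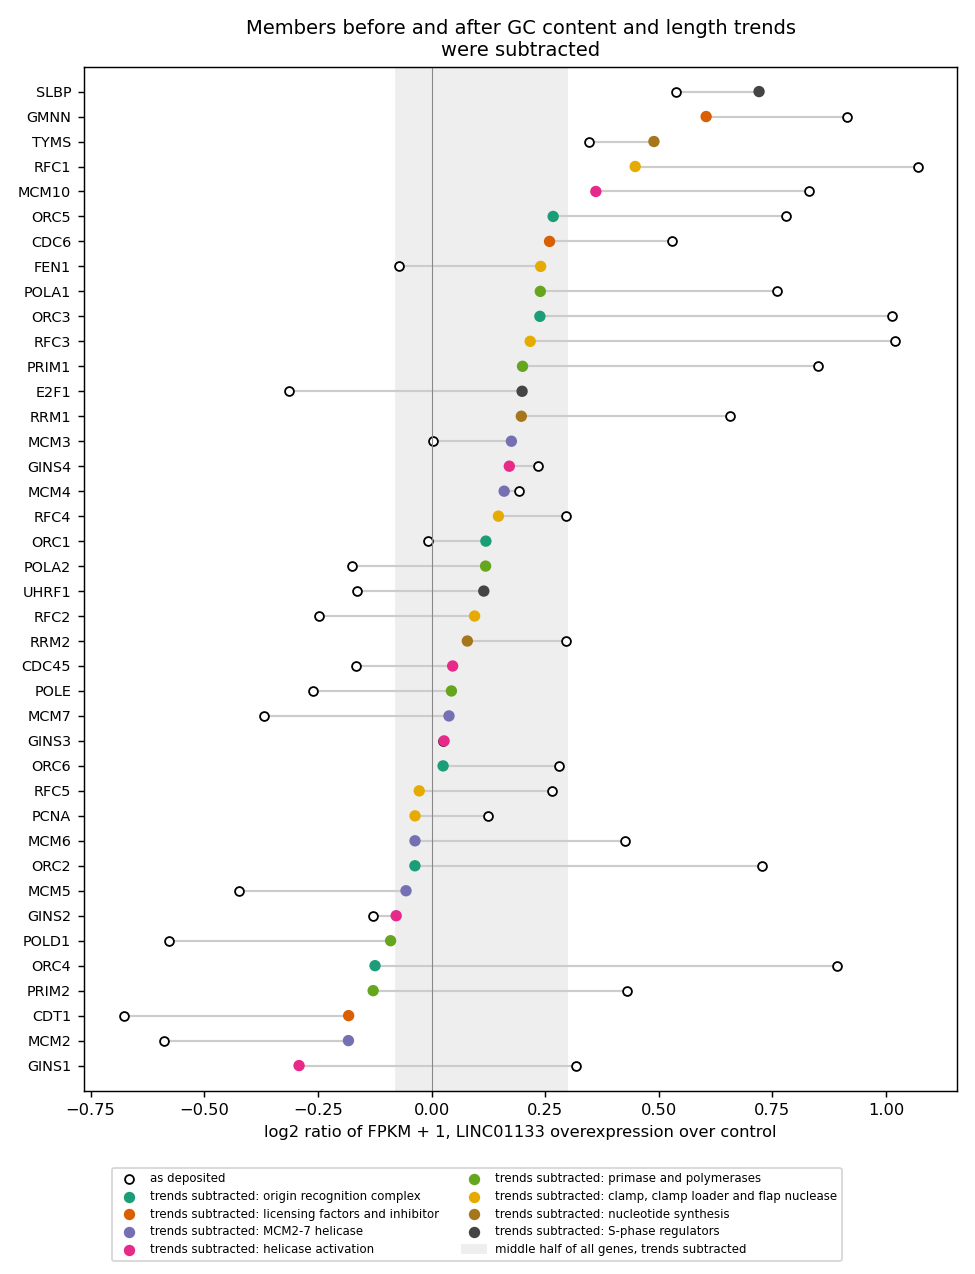
Log2 ratio of each member as deposited and after subtraction of the trends of all genes on GC content and length, overexpression over control, by role. The members draw together from a range of -0.68 to 1.07 to one of -0.29 to 0.72, with SLBP and GMNN highest and GINS1 lowest on the subtracted scale.

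E2F-type letters, which the choice of members did not use, stood in fewer than 1 in 2 of the members' promoters, but in a larger share than over all promoters. The search was for TTTCCCGC, TTTGGCGC, TTTGCCGC and TTTCGCGC on both strands, from 250 bases before to 50 after each start, and overlapping matches were merged. A RefSeq promoter was matched for 37 of the 40 members (all but MCM4, MCM5 and GINS4), 49 promoters in all. E2F-type letters stood in 20 of these promoters (40.8%), against 664 of 12800 promoters of genes past the filter (5.19%) and 1164 of 35116 promoters in all (3.32%). CCAAT, on either strand, stood in 29 (59.2%), against 34.9% and 34.6%. The 19 members with E2F-type letters had a median log2 ratio of 0.03, and the 18 without had 0.36. With the trends subtracted both medians were 0.11, and the transcripts had a median GC content of 49.1% with and 44.5% without those letters. A match is only a run of letters, and the lack of one says nothing about a factor.

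Among 50 other replication genes listed, 49 passed the filter, and POLD4, at 0.0402 FPKM in the overexpression library and 0.377 FPKM in the control library, did not. Of the 49, 26 had a log2 ratio above 0, where 55.4% of all filtered genes did. Their median log2 ratio was 0.05, with a range from -0.74 to 1.79. Under the trimmed-mean scaling that median was -0.13, where the median of all genes was -0.07. At 2-fold, 13 of the 49 were higher, where 11.9% of all genes were, and none was lower, where 0.444% were. The lowest log2 ratio, -0.74, was that of TK1, a thymidine kinase, with 95.1 FPKM in the overexpression library and 159.7 FPKM in the control library. TIMELESS, the partner of TIPIN, had 44.8 FPKM in the overexpression library and 50.4 FPKM in the control library, and POLD2, a subunit of polymerase delta, had 124 FPKM in the overexpression library and 186 FPKM in the control library. TK1, TIMELESS and POLD2 were chosen after their values were seen. With the trends subtracted the median was 0.13, and DBF4 alone was at 2-fold or more. DBF4 and CDC7 form the kinase that phosphorylates MCM2-7 so that origins can fire. DBF4 had 15.45 FPKM in the overexpression library and 3.75 FPKM in the control library, a ratio of 4.12 (3.61 to 4.73). CDC7 had 20.5 FPKM in the overexpression library and 6.91 FPKM in the control library, a ratio of 2.97 (2.65 to 3.34). Both subunits were thus higher in the overexpression library, by 1.03 and 0.61 on the log2 scale with the trends subtracted. TOPBP1, which helps to load CDC45, had 11.97 FPKM in the overexpression library and 4.57 FPKM in the control library. MTBP, a partner of the firing factor TICRR, had 17.5 FPKM in the overexpression library and 5.05 FPKM in the control library. WDHD1, which couples the helicase to polymerase alpha, had 13.2 FPKM in the overexpression library and 5.66 FPKM in the control library. These genes are named because they were past 2-fold, so their common direction is no result. TIPIN, a fork protection protein, had 9.20 FPKM in the overexpression library and 4.01 FPKM in the control library. The other genes at 2-fold had log2 ratios from 1.15 to 1.53. They were DNA2, a nuclease and helicase of Okazaki fragments, ATAD5, which unloads PCNA, DSCC1, of an alternative clamp loader, PCLAF, which binds PCNA and shares 28.8% of its exon bases with other genes, ASF1A, a histone chaperone, HELLS, a chromatin remodeller, and RRM2B, the p53-inducible subunit of ribonucleotide reductase. DSCC1 was the most abundant of them, with 108 FPKM in the overexpression library and 46.4 FPKM in the control library. DONSON, which helps to form the active helicase, had 6.39 FPKM in the overexpression library and 2.91 FPKM in the control library. With the trends subtracted DONSON lay at 0.62.

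A pair of other lists, of the cell cycle and of repair, is set beside the members by counts and medians. Of 30 mitotic genes past the filter, 10 reached 2-fold on the higher side and none on the lower, beside 11.9% and 0.444% of all genes, with a median log2 ratio of 0.80 and a median GC content of 42.4%. Of 26 homologous recombination and Fanconi anaemia genes, 13 were higher and none lower, beside the same shares of all genes, with a median of 0.99 and a median GC content of 42.1%. With the trends subtracted, 0 genes of either list reached 2-fold in either direction, beside 1.71% and 0.764% of all genes. On that scale the mitotic median was 0.33 and the recombination median 0.19, against 0.12 for the members and 0.10 for all genes. No test of these differences between lists was made.

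**Figure D4:**
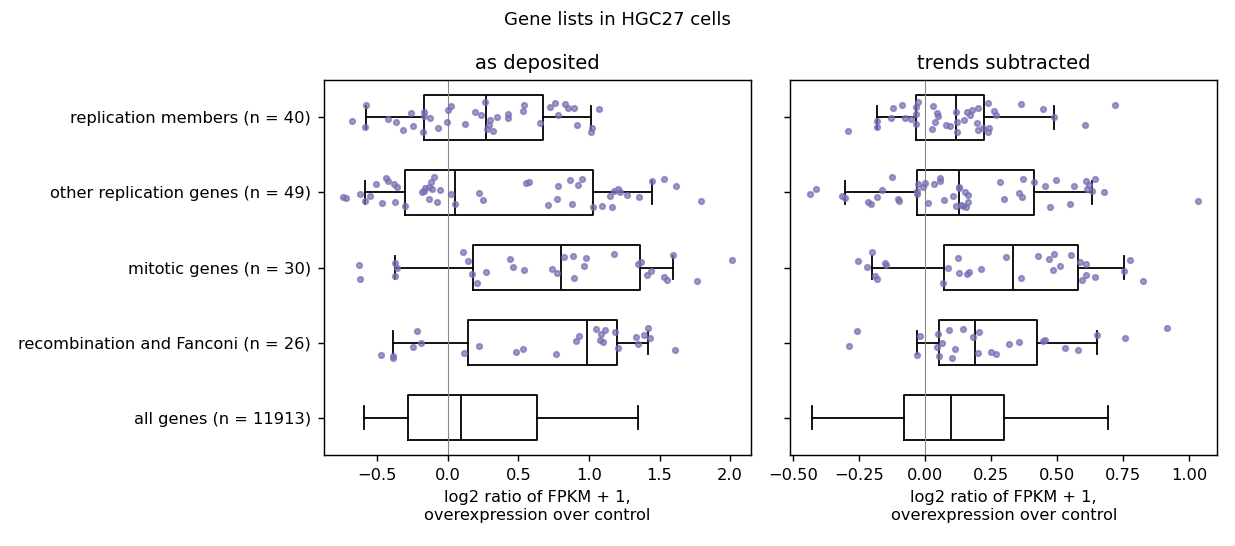
Log2 ratio of FPKM + 1, overexpression over control, for the members, the 3 other lists and all genes past the filter, as deposited and after subtraction of both trends. The members' median lies at 0.27 as deposited and at 0.12 after subtraction, below the mitotic list on both scales.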

How the data were processed

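The deposited file of each library gives 1 value a gene, read here as FPKM made by the authors: multiplied by GENCODE 29 exon length, values are whole multiples of 1 step per library, within 0.02 of a fragment, for 94.4% of genes in the overexpression library and 94.5% in the control library. That step gave the depths and fragments. The labels do not name the unit. The submitters' processing notes list HTSeq 0.6.0, HISAT2 2.1.0 and Bowtie2 2.2.3, with the build GRCh38; roles, strand setting and annotation are not given in the sources used here.

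Computed here with Python 3.11.15, numpy 2.4.6, pandas 2.3.3, scipy 1.17.1 and statsmodels 0.14.6 were log2 ratios with a pseudocount of 1, a filter at mean FPKM 1, thresholds of 2-fold and 1.5-fold, and lowess trends (span 0.3) on GC content, then log2 transcript length, subtracted over all genes. Composition is that of the longest coding transcript holding a 3′ UTR. Intervals are 95% Clopper-Pearson and cover counting error only. No test was made, because each group held 1 library. Scripts were tested on simulated data.

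All 40 members are named. Of 50 other replication genes, those at 2-fold and the 6 farthest from 0 with trends subtracted are named, save items not reported here, and the quotients of pairs of members were chosen after their values were seen. Members and lists were chosen with earlier results of these data known. Alternatives were other scalings, filters, pseudocounts, thresholds and trends.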

Additional observations from a re-analysis of the deposited data

How the results depend on the processing

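No paired analysis was possible because the groups have a single library each. The count of members at least 2-fold higher, 3 as deposited, was 0 under median-of-ratios scaling, trimmed mean of M values, upper quartile scaling, and removal of the trends on GC content and length or of that on GC content alone. It was 11 at a 1.5-fold threshold. The count at least 2-fold lower, 0 as deposited, was 2 under upper quartile scaling and 2 at 1.5-fold. The median of the members, 0.27 as deposited, was 0.086 under median-of-ratios scaling, 0.078 under the trimmed mean of M values, -0.11 under upper quartile scaling, 0.12 with both trends subtracted and 0.11 with the GC content trend alone. Trimmed-mean scaling moved the median of all genes to -0.07. Upper quartile scaling lowers the log2 ratio of any gene, member or not, by up to 0.42, and median-of-ratios scaling by up to 0.20. The medians and shares of all genes under those scalings are not given here. Chosen after seeing the data were a further trend on level, with 0 members at 2-fold and a median of 0.18, trends by the median over coding transcripts, with 0 and 0.056, and leaving out the 8 members that share at least 10% of their exon bases, with a median of 0.29. GMNN lay at 0.33 by the median over coding transcripts, against 0.60, and SLBP between 0.60 and 0.82 over the 4 ways of fitting trends. The sign of the log2 ratio was kept by 36 of 40 members under the trimmed mean, 29 under upper quartile scaling and 24 with the trends subtracted. Exon sharing, the choice of transcript and the lack of replicates limit single members; the cause of each shift was not tested.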
